A study of Homo sapiens with 5 samples.

Results

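The 60 genes described here encode cytokines of the IL-6 and IL-1 families, IL-15, cytokine receptors, Janus kinases (JAKs), signal transducers and activators of transcription (STATs), and their inhibitors of the SOCS and PIAS families. They were taken as a fixed list by gene symbol, and all 60 had an entry among the 64837 gene entries of the count files. Of these 60 genes, 44 had enough reads to be tested, out of 20360 genes tested in all. The cells were NCI-H209, an established human small-cell lung cancer (SCLC) line that carries no engineered allele in the labels. The control group was 3 libraries of NCI-H209 cells grown alone. The experimental group was 2 libraries of NCI-H209 cells kept for 24 h with human brain microvascular endothelial cells (HBMECs), which sat in a Transwell insert so that the cell types shared medium through a membrane. The study used this arrangement to ask how the vascular niche of the brain acts on lung tumor cells. The labels do not say whether the libraries of a group came from separate cultures, so the p-values measure only the spread between these libraries, which may be technical.

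Most cytokine receptors of these families have no kinase of their own. JAKs attached to the receptor tails phosphorylate the receptor and the STATs, which then enter the nucleus and switch genes on. Genes for SOCS proteins and CISH are among those that STATs switch on, and their products shut the receptors down again, while PIAS proteins restrain STATs in the nucleus. IL-6, LIF, oncostatin M and related ligands all signal through a shared chain encoded by IL6ST, mostly to STAT3. Receptors for IL-1, IL-18 and IL-17 use other adaptors and kinases instead of JAKs. In the brain, this pathway is known from the exchange between astrocytes, vessels and metastatic tumor cells.

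Counts on the expected strand totalled 17317045 to 19157348 in the controls, and 18918787 and 15457071 with HBMECs. Between 8.13% and 8.48% of reads were left unmapped in the controls, and 16.8% and 15.9% with HBMECs. The part of this difference in the results was not tested. Over all genes tested, the median share of reads on the opposite strand was 0.452%, 0.458% and 0.566% in the controls and 0.402% and 0.379% with HBMECs. For 1.13% of these genes the opposite-strand level was over 2 times higher in both control replicates 1 and 2 than in every other library, and results are therefore also given against control replicate 3 alone. The summed level of 21 endothelial markers was 30.7, 23.0 and 18.9 CPM (read counts scaled to library size) in the controls and 24.4 and 25.4 CPM with HBMECs, and 7 of them (TIE1, ROBO4, EMCN, MMRN2, PLVAP, SOX17 and ECSCR) had at most 3 counts in every library. The groups overlapped in this sum, but 2 of the 10 endothelial markers tested were higher, ESAM with 3, 4 and 6 counts beside 21 and 14 with HBMECs (log2 fold change 2.14, adjusted p = 0.00666) and ICAM2 (log2 fold change 0.45, adjusted p = 0.0367). The 9 leukocyte markers summed to 4.79, 3.10 and 2.30 CPM in the controls and to 5.96 and 6.28 CPM with HBMECs, with CD68 and NKG7 at most at 3 counts in every library and ITGAM higher (log2 fold change 2.52, adjusted p = 0.000236). The 9 fibroblast and mural markers summed to 21.5 to 27.9 CPM in the controls and to 21.6 and 24.4 CPM with HBMECs. Among them RGS5 was higher (log2 fold change 0.61, adjusted p = 0.0217) and TAGLN lower (log2 fold change -1.20, adjusted p = 0.0151). Control replicates 1 and 2 had 27 and 39 counts of DCN, 20 and 19 of LUM and 34 and 30 of PDGFRB, beside 0 of each in control replicate 3 and at most 3 in the co-cultured libraries. The endothelial markers NOS3, TEK and KDR were also highest in control replicates 1 and 2. In the controls NOS3 had 41, 39 and 4 counts, TEK 31, 24 and 0, and KDR 37, 27 and 2. With HBMECs they had 3 and 7, 6 and 3, and 12 and 4. The leukocyte marker CSF1R had 27, 14 and 0 counts in the controls and 0 with HBMECs. None of these passed at an adjusted p under 0.05. The labelled cell type carried its markers, since 17 neuroendocrine SCLC markers summed to 3789 to 4691 CPM in the controls and to 4846 and 4887 CPM with HBMECs, although CHGA had at most 3 counts in every library. The part of the markers of other cell types in the results was not tested.

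Co-cultured NCI-H209 cells had higher mRNA of the shared IL-6 family receptor chain, of STAT3 and STAT6, of JAK1 and JAK2, and of SOCS2, and they gained transcripts of LIF and IL6R that were nearly undetected in the control group. Of the 44 members tested, 18 were higher at an adjusted p under 0.05 (edgeR, quasi-likelihood test, Benjamini-Hochberg adjustment over all 20360 genes), which is 40.9% beside 18.4% of all genes tested. None was lower, beside 15.0% of all genes. The members were chosen with earlier results of these data known, so their shares beside all genes are a description only. At an unadjusted p under 0.05, 3 members were lower (IL7R, IL17RD and LEPR), and DESeq2 called none lower, either adjusted or unadjusted. The other 26 tested members did not pass. The median log2 fold change of the 44 members was 0.39, beside -0.03 for all genes. The study called differentially expressed genes (DEGs) by an absolute fold change and an unadjusted p without naming a scale. With this read as a change of over 1 on the log2 scale at an unadjusted p under 0.05, 8 members were upregulated (18.2% of those tested, beside 5.44% of all genes) and 1 was downregulated (2.27%, beside 5.01%). Against control replicate 3 alone, the log2 fold changes of all 18 stayed positive, from 0.37 for JAK2 to 7.17 for IL6R, and that of LEPR was -0.48. Without control replicate 1, 23 of 43 members with a value were higher, adding IL20RB, IL2RG, SOCS3, SOCS6 and TYK2. In that fit 3 were lower (IL17RD, JAK3 and LEPR), and its share over all genes is not given here. In 28 members every co-cultured library lay above every control library (29.4% of all genes did so), and in 3 members every co-cultured library lay below (JAK3, IL17RD and LEPR, beside 30.0% of all genes). A whole-cell RNA measurement cannot tell a change per cell from a change in the share of cells that hold the transcript.

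**Figure D1:**
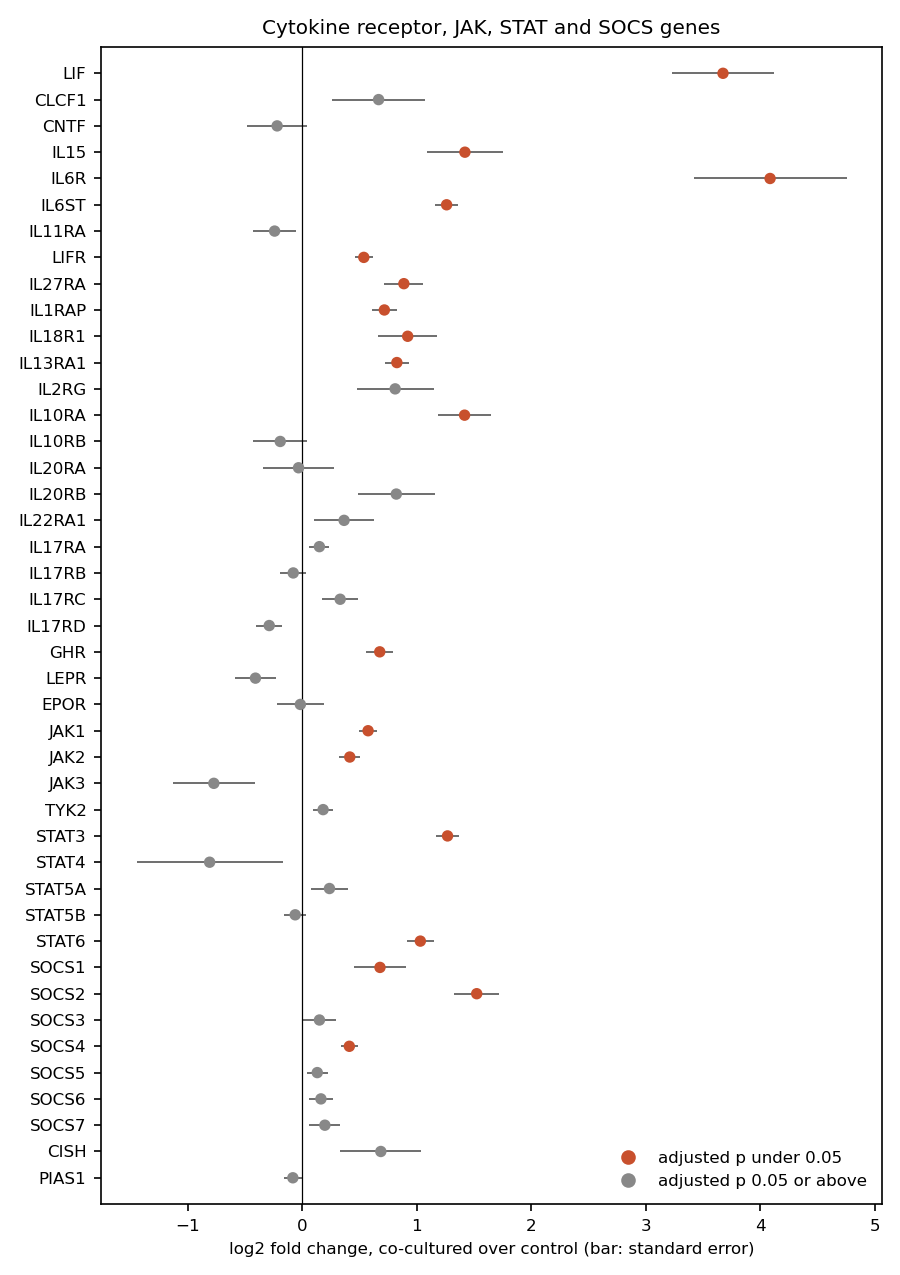
Log2 fold change with HBMECs relative to the controls for 43 tested members (x axis), grouped by role from ligands at the top to SOCS and PIAS genes at the bottom, with bars for the standard error and red points for an adjusted p under 0.05. The 18 red points all lie to the right of 0, from 0.41 for SOCS4 to 4.09 for IL6R. IL7R, with no counts in the co-cultured libraries, is not drawn.

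Among the ligands, LIF and IL15 rose and most others were close to undetected. LIF, a ligand of the IL-6 family that binds LIFR with the IL6ST chain, measured 0.213, 0.0553 and 0.256 CPM in the controls and 2.19 and 2.51 CPM with HBMECs. LIF was higher with HBMECs in each library, and it rose by 3.68 ± 0.45 on the log2 scale (SE, adjusted p = 0.000438). The gene lies on chr22:30240447-30246851 (GRCh38, minus strand). IL15, whose product sustains natural killer and memory T cells, measured 0.691, 1.38 and 1.33 CPM in the controls and 2.57 and 3.57 CPM with HBMECs. The groups did not overlap, and its log2 fold change was 1.42 ± 0.33 (adjusted p = 0.0102). Without co-cultured replicate 2 the adjusted p of IL15 was 0.112. After subtracting opposite-strand reads it was 0.115, with a log2 fold change of 1.43. IL15 had 10, 1 and 2 opposite-strand reads in the controls and 7 and 12 with HBMECs. CLCF1, a further IL-6 family ligand, showed a log2 fold change of 0.67 ± 0.41 (adjusted p = 0.239), and CNTF had -0.22 ± 0.26 (adjusted p = 0.56). Both share exon sequence with a neighbouring entry on the same strand, so their counts are uncertain. CLCF1 also had 35, 48 and 52 opposite-strand reads in the controls and 21 and 20 with HBMECs, more than on its own strand. GENCODE 29 has no exon of another gene on that strand. Without regard to strand the log2 fold change of CLCF1 was -0.38 (adjusted p = 0.236). IL6, IL11, OSM, IL1A, IL1B and IL18 had at most 3 counts in every library, so the ligands that give the families their names were not detectable at this depth. Nearly all reads within IL1A and IL1B were on the opposite strand, 39 to 72 per library for IL1A and 39 to 69 for IL1B, where GENCODE 29 has no exon of another gene. A count of 3 corresponds to 0.154 to 0.198 CPM in these libraries.

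The tested receptor genes of the IL-6 family also rose, except IL11RA. IL6ST, the shared signalling chain, measured 77.2, 67.7 and 64.8 CPM in the controls and 179 and 156 CPM with HBMECs. Every co-cultured library was far above the control libraries, and the fold was 2.40 (log2 fold change 1.26 ± 0.10, adjusted p = 5.59e-05). IL6ST lies on chr5:55935095-55994993 (GRCh38, minus strand). LIFR, the partner chain that binds LIF, measured 78.3, 83.4 and 89.3 CPM in the controls and 122 and 121 CPM with HBMECs. The groups did not overlap, and its log2 fold change was 0.54 ± 0.08 (adjusted p = 0.00125).

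IL6R, the chain that binds IL-6 itself, had 2, 1 and 0 counts in the controls and 19 and 15 counts with HBMECs. Control libraries were at or under 3 counts throughout. Over the groups this was a ratio of 18.3 for depth-scaled counts (95% exact interval 5.76 to 93.3, counting error only), and the adjusted p was 0.00187. Its co-cultured level was nevertheless only 1.04 and 0.991 CPM. OSMR, the receptor chain for oncostatin M, had 1, 4 and 0 counts in the controls and 15 and 8 counts with HBMECs, and was left out by the filter on low counts. With all genes of at least 1 count kept, its log2 fold change was 2.85 (adjusted p = 0.00108), and without regard to strand it was -0.02 (adjusted p = 0.957). OSMR also carried 170 to 252 reads per library on the opposite strand, where RICTOR overlaps it. IL27RA, which joins IL6ST to bind IL-27, measured 5.05, 7.13 and 6.09 CPM in the controls and 11.3 and 11.2 CPM with HBMECs. Its groups did not overlap, with a log2 fold change of 0.89 ± 0.17 (adjusted p = 0.00416). IL11RA, the receptor for IL-11, showed a log2 fold change of -0.24 ± 0.19 (adjusted p = 0.352), and CNTFR, with at most 8 counts in a library, was not tested. Of the 7 receptor genes of this family, 4 of the 5 tested rose.

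**Figure D2:**
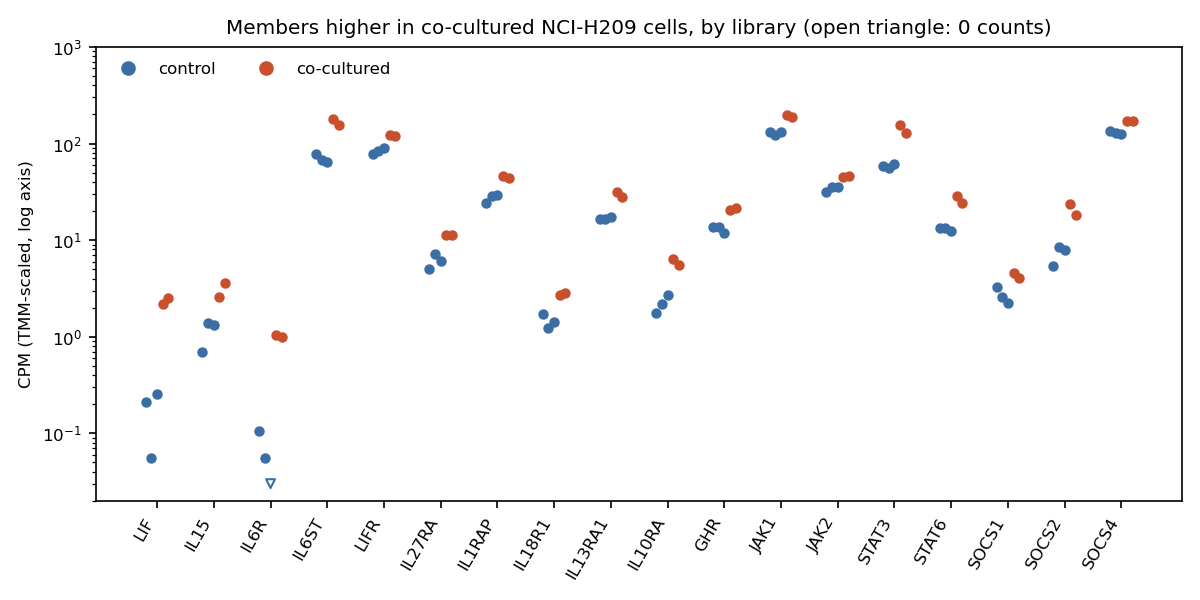
CPM on a log axis for the 18 members that were higher in co-cultured cells, with 1 point per library, blue for the 3 control and red for the 2 co-cultured libraries. The red points lie above the blue points for each gene, and LIF and IL6R start from under 0.3 CPM in the control libraries.

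Both tested receptor genes of the IL-1 family rose. IL1RAP, the accessory chain that receptors for IL-1 and IL-33 need for signalling, measured 24.1, 28.6 and 29.3 CPM in the controls and 46.3 and 43.6 CPM with HBMECs. The log2 fold change was 0.72 ± 0.11 (adjusted p = 0.00117). IL18R1, the ligand-binding chain for IL-18, measured 1.70, 1.22 and 1.43 CPM in the controls and 2.68 and 2.84 CPM with HBMECs, a log2 fold change of 0.92 ± 0.26 (adjusted p = 0.0232). Neither gene overlapped between groups, but both share exon sequence with another entry on the same strand. The call for IL18R1 was lost without control replicate 2 (adjusted p = 0.0751), without control replicate 3 (0.0594), without co-cultured replicate 1 (0.111) and without co-cultured replicate 2 (0.131). IL1R1, the signalling receptor for IL-1, measured 0.266, 0.221 and 0.102 CPM in the controls and 0.383 and 1.26 CPM with HBMECs and was not tested. The decoy receptor gene IL1R2 had at most 3 counts in every library.

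Among the receptors for IL-4, IL-13 and the common gamma chain cytokines, IL13RA1 was the only member of the 3 tested that passed. IL13RA1, which binds IL-13 and pairs with IL4R, measured 16.5, 16.5 and 17.2 CPM in the controls and 31.5 and 27.7 CPM with HBMECs. The control libraries lay close together, and the fold was 1.77 (log2 fold change 0.83 ± 0.11, adjusted p = 0.000534). Its partner IL4R had 5, 4 and 5 counts in the controls and 1 and 2 counts with HBMECs. That was a ratio of 2.89 with an exact interval of 0.805 to 15.7, which includes equal levels. IL2RG, the common gamma chain, showed a log2 fold change of 0.81 ± 0.34 (adjusted p = 0.092). IL7R, the receptor chain for IL-7, had 14, 11 and 0 counts in the controls and 0 counts in both libraries with HBMECs. It was at least 5.15-fold lower in the co-cultured group against a floor of 3 counts over the group, with an adjusted p of 0.072. Control replicate 3 was at 0 as well, so the difference rested on control replicates 1 and 2, the libraries in which IL7R also had 8 and 6 reads on the opposite strand and in which DCN, LUM and PDGFRB had their counts. The part of these in the result was not tested. IL15RA, with at most 12 counts in a library, was not tested, and IL13RA2 had at most 3 counts in every library.

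IL10RA, the signal-competent chain of the IL-10 receptor, measured 1.75, 2.16 and 2.71 CPM in the controls and 6.34 and 5.48 CPM with HBMECs. On the expected strand the groups did not overlap and the log2 fold change was 1.42 ± 0.23 (adjusted p = 0.0018). The reads on its opposite strand, where GENCODE 29 has no other exon, went the other way, from 80, 90 and 84 in the control libraries to 22 and 31 in the co-cultured libraries (log2 fold change -1.33, adjusted p = 0.00459). On opposite-strand counts, 6.39% of the 12653 genes tested were lower and 7.86% were higher. Counted without regard to strand, the log2 fold change of IL10RA was 0.22 (adjusted p = 0.316). The strand column therefore decided this call. The other class II receptor genes did not pass. The log2 fold change of IL20RB was 0.82 ± 0.34 (adjusted p = 0.0909), IL22RA1 had 0.37 ± 0.26, IL20RA had -0.03 ± 0.31, and IL10RB had -0.19 ± 0.24.

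None of the 4 receptor genes for IL-17 passed the test, although IL17RA, the shared chain, had 35.3 to 39.2 CPM in the control libraries. Their log2 fold changes ran from -0.29 ± 0.11 for IL17RD (adjusted p = 0.0799) to 0.33 ± 0.16 for IL17RC (adjusted p = 0.137). Of the hormone and growth factor type receptors, GHR, the growth hormone receptor, rose from 13.7, 13.8 and 11.8 CPM to 20.4 and 21.5 CPM, a log2 fold change of 0.68 ± 0.12 (adjusted p = 0.00274). The leptin receptor gene LEPR had lower values in both co-cultured libraries, 7.32 and 7.27 CPM beside 7.87 to 11.1 CPM in the control libraries, but did not pass (log2 fold change -0.41 ± 0.18, adjusted p = 0.106). EPOR, the erythropoietin receptor, showed a log2 fold change of -0.02 ± 0.20. PRLR, CSF2RA and CSF3R had at most 3 counts in every library. IL11RA, IL2RG, IL10RB, IL20RB, LEPR, EPOR and SOCS5 share exon sequence with another entry on their own strand, so their counts are uncertain. CSF2RA lies in the region that the X and Y chromosomes share, where reads with more than 1 match are not counted.

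Of the 4 JAK genes, JAK1 and JAK2 rose. JAK1, the kinase that serves the IL-6, interferon and common gamma chain receptors, measured 133, 122 and 132 CPM in the controls and 196 and 189 CPM with HBMECs. The log2 fold change was 0.58 ± 0.08 (adjusted p = 0.000706). JAK2, which serves the growth hormone and erythropoietin receptors, measured 31.7, 35.6 and 35.1 CPM in the controls and 44.9 and 46.2 CPM with HBMECs. It rose by 0.42 ± 0.09 on the log2 scale (adjusted p = 0.00732), and without co-cultured replicate 1 or 2 its adjusted p was 0.0634 or 0.0792. TYK2, a partner of JAK1 at interferon receptors, measured 75.6, 71.7 and 63.8 CPM in the controls and 79.3 and 80.5 CPM with HBMECs. Its groups did not overlap, but the log2 fold change of 0.18 ± 0.09 did not pass (adjusted p = 0.145). Without control replicate 1 the adjusted p of TYK2 was 0.00901. JAK3, the partner of the common gamma chain in lymphocytes, had 1.91, 3.04 and 1.89 CPM in the controls and 1.69 and 0.925 CPM with HBMECs (log2 fold change -0.77 ± 0.36, adjusted p = 0.128). JAK3 was called lower when control replicate 1 was left out (adjusted p = 0.0467).

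STAT3 and STAT6 rose, and STAT4, STAT5A and STAT5B did not pass. STAT3, the main transducer of IL-6 family signals, measured 58.7, 56.3 and 62.0 CPM in the controls and 156 and 128 CPM with HBMECs. Both co-cultured libraries were more than 2 times the highest control library, and the fold was 2.41 (log2 fold change 1.27 ± 0.10, adjusted p = 5.15e-05). STAT3 lies on chr17:42313324-42388568 (GRCh38, minus strand). STAT6, the transducer of IL-4 and IL-13 signals, measured 13.3, 13.3 and 12.3 CPM in the controls and 28.9 and 24.2 CPM with HBMECs. Its fold was 2.04 (log2 fold change 1.03 ± 0.12, adjusted p = 0.000324). STAT5A and STAT5B, near-identical genes that serve growth hormone, prolactin and IL-2 signals, had log2 fold changes of 0.24 ± 0.16 (adjusted p = 0.281) and -0.06 ± 0.09 (adjusted p = 0.649). STAT5B measured 59.7, 67.1 and 71.3 CPM in the controls and 65.2 and 61.4 CPM with HBMECs, and STAT5A measured 8.72, 10.2 and 7.58 CPM and 10.5 and 10.2 CPM. STAT5B overlapped between groups, and STAT5A lay slightly higher in both co-cultured libraries. STAT4, which serves IL-12 in lymphocytes, had 16, 15 and 7 counts in the controls and 11 and 2 counts with HBMECs (log2 fold change -0.81 ± 0.64, adjusted p = 0.362).

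Of the 9 inhibitor genes, SOCS2, SOCS4 and SOCS1 rose. SOCS2, the main brake on growth hormone signalling, measured 5.37, 8.57 and 7.83 CPM in the controls and 23.4 and 18.2 CPM with HBMECs. The groups were far apart, with a fold of 2.88 (log2 fold change 1.52 ± 0.20, adjusted p = 0.000571). SOCS2 lies on chr12:93569814-93583487 (GRCh38, plus strand). The antisense gene SOCS2-AS1, which overlaps its exons, rose by a log2 fold change of 1.53 ± 0.23 (adjusted p = 0.00118), from 42, 64 and 62 counts to 177 and 113 counts. SOCS4, an inhibitor linked to the epidermal growth factor receptor, measured 136, 129 and 124 CPM in the controls and 172 and 173 CPM with HBMECs (log2 fold change 0.41 ± 0.08, adjusted p = 0.00334). Without co-cultured replicate 2 the adjusted p of SOCS4 was 0.05001. SOCS1, which inhibits JAKs directly, measured 3.24, 2.6 and 2.25 CPM in the controls and 4.54 and 4.10 CPM with HBMECs. Its log2 fold change of 0.68 ± 0.23 was just past the threshold (adjusted p = 0.0456), and the call was lost under 9 of the 15 alternatives, among them leaving out control replicate 2 or 3 or either co-cultured replicate (adjusted p from 0.115 to 0.233).

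SOCS3, the inhibitor that binds the IL6ST chain and a classical STAT3 target, did not pass. It measured 42.0, 32.2 and 29.4 CPM in the controls and 39.7 and 36.9 CPM with HBMECs, so the groups overlapped through control replicate 1. The log2 fold change was 0.15 ± 0.14 (adjusted p = 0.454), and SOCS3 was called higher without control replicate 1 (log2 fold change 0.32, adjusted p = 0.00469). SOCS5, SOCS6 and SOCS7 had log2 fold changes of 0.13 ± 0.09, 0.16 ± 0.11 and 0.20 ± 0.14. CISH, a classical STAT5 target, measured 0.798, 1.27 and 1.28 CPM in the controls and 2.24 and 1.32 CPM with HBMECs (log2 fold change 0.69 ± 0.35, adjusted p = 0.165). PIAS1, an inhibitor of STATs, showed a log2 fold change of -0.08 ± 0.08 (adjusted p = 0.456).

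STATs bind DNA at a palindrome in which TTC and GAA are spaced by a few bases. The spacing of 3 bases, TTCNNNGAA, was searched in the promoter windows of RefSeq (GRCh38.p14, 250 bases before to 50 after a start), in the 250 bases before each start. The motif is its own reverse complement, so each match stands for both strands. Of the 60 members, 50 had a window, with 83 starts in all, and 7 of these starts held a match (8.43%), beside 6.57% of all 35116 windows. With TTC and GAA spaced by 4 bases, 5 of the 83 starts held a match (6.02%), beside 5.38% of all windows. The members' windows were thus close to the background. The window of CISH held 4 matches and those of IL6ST and STAT3 held none. The stretches before their outermost annotated starts are given 5′ to 3′ on the gene's strand, with matches in capitals, since these genes are a STAT5 target that did not pass and the pair of members with the smallest adjusted p. They are chr3:50611832-50612024, chr5:55994994-55995213 and chr17:42388569-42388692, all on the minus strand. A match of letters is not a binding site, and its absence is limited to these windows.
CISH: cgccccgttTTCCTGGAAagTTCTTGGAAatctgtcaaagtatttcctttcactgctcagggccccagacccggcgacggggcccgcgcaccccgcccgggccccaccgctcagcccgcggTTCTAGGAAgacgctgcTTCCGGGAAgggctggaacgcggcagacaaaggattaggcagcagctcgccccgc
IL6ST: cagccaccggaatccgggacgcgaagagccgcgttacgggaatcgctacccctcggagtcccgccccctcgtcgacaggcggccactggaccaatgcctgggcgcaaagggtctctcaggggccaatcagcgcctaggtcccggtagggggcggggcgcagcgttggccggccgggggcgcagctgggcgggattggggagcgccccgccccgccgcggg
STAT3: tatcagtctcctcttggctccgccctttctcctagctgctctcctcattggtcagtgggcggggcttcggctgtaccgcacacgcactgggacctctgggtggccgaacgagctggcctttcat

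Reads on the strand opposite to a gene were examined for STAT3 and the JAK genes, and they were more frequent in control replicates 1 and 2 for STAT3 and JAK3 but not for JAK2 and TYK2. STAT3 had 27 and 17 such reads in control replicates 1 and 2, beside 1 in control replicate 3 and 3 and 2 in the co-cultured libraries. As a share of reads on either strand this was 2.39% (95% Wilson interval 1.65% to 3.45%) and 1.64% (1.03% to 2.61%), beside 0.0825% (0.0146% to 0.466%) in control replicate 3. Against control replicate 3 alone, the log2 fold change of STAT3 was 1.20. JAK3 had 38, 22 and 6 opposite-strand reads in the controls and 2 in each library with HBMECs. In control replicate 1 they were 51.4% of its reads (40.2% to 62.4%), more than those on its own strand. Without regard to strand the log2 fold change of JAK3 was -1.19 (adjusted p = 0.0317), which is a lower call that the stranded counts do not give. JAK1 had 88, 72 and 59 opposite-strand reads in the controls and 24 and 30 with HBMECs, at most 3.39% of its reads, and RAVER2 overlaps it on that strand. JAK2 had 12, 14 and 16 beside 3 and 5, and TYK2 had at most 2 in any library.

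In 5 of the 44 members tested (11.4%), namely STAT3, STAT4, STAT5B, JAK3 and IL7R, the opposite-strand level in both control replicates 1 and 2 was over 2 times that of every other library. This was so for 230 of all 20360 genes (1.13%). STAT3 and the JAK genes were picked for this check with the pattern known, so the members' share is a description only. STAT5B had 38 and 30 such reads in control replicates 1 and 2, 8 in control replicate 3, and 0 and 2 in the co-cultured libraries. Against control replicate 3 alone, the log2 fold changes of the members that rose ran from 0.37 for JAK2 to 7.17 for IL6R, the latter against a library with 0 counts. The intervals cover counting error only.

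**Figure D3:**
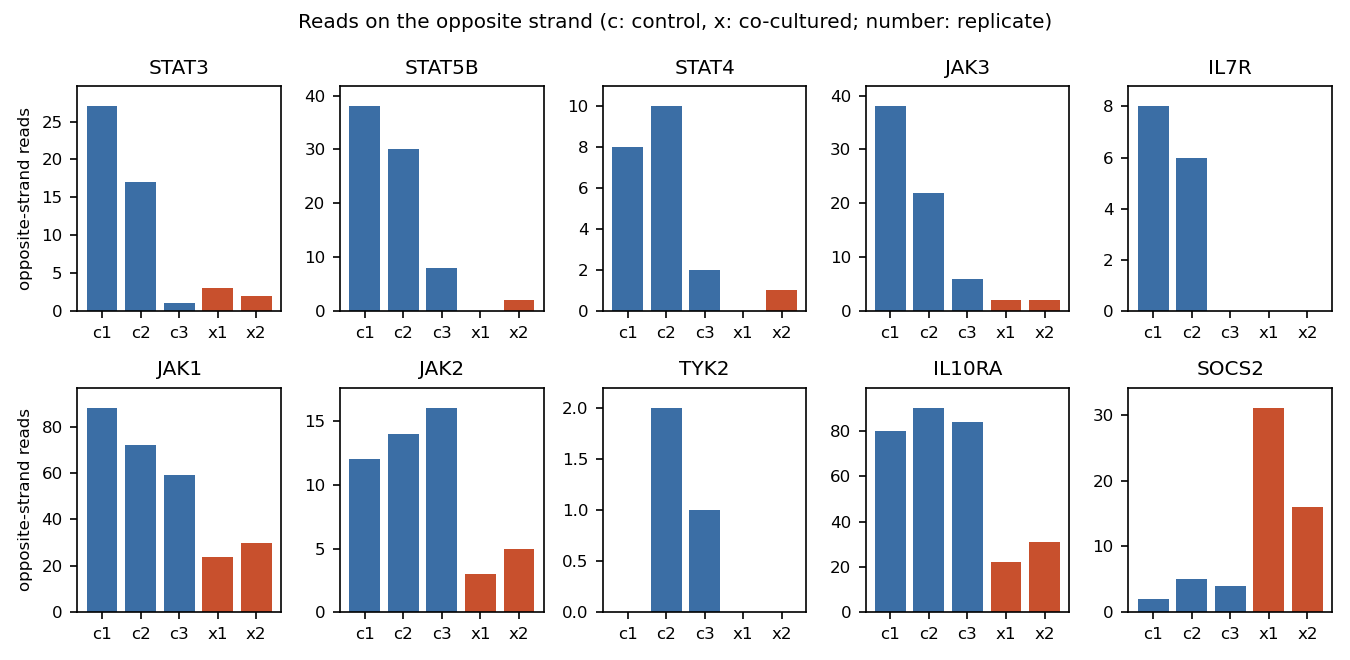
Reads on the opposite strand per library for 10 members (y axis, read count with its own scale in each panel), with control replicates 1 to 3 in blue and co-cultured replicates 1 and 2 in red. STAT3, STAT5B, STAT4, JAK3 and IL7R stand high in control replicates 1 and 2, JAK1, JAK2 and IL10RA are lower in both co-cultured libraries, and SOCS2 is higher in both.

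Per length of exon, the most abundant member was JAK1, with 20.4 CPM per kilobase in the control group and 30.4 in the co-cultured group. SOCS4 followed with 18.4 and 24.5 CPM per kilobase. The control libraries of SOCS4 and JAK1 just overlapped, while SOCS3 (12.6 and 14.0), TYK2 (10.4 and 11.8) and STAT5B (10.2 and 9.82) formed a group whose control libraries overlapped. In the control group IL6ST (7.52), LIFR (7.05) and STAT3 (6.70) overlapped with each other. In the co-cultured group IL6ST reached a mean of 18 and STAT3 of 16.1 CPM per kilobase, above the means of SOCS3, TYK2 and STAT5B. LIFR reached 10.2 CPM per kilobase. The tested receptor genes of the IL-6 family were thus led by IL6ST and LIFR. In the co-cultured group IL27RA was at 3.81, IL11RA at 1.59 and IL6R at 0.157 CPM per kilobase. The ligand gene LIF was at 0.592 CPM per kilobase in that group.

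**Figure D4:**
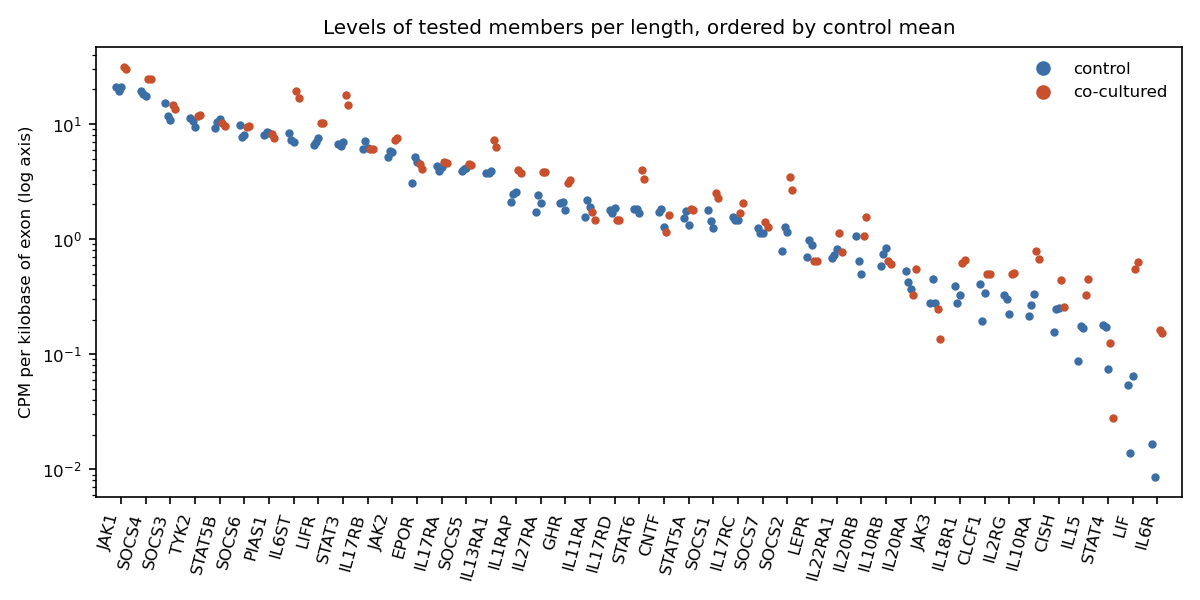
Level of 43 tested members as CPM per kilobase of exon on a log axis, ordered by the control mean, with 1 point per library (blue control, red co-cultured; libraries at 0 counts not drawn). JAK1 and SOCS4 lead in both groups, and IL6ST and STAT3 move from means of about 7 to means of over 16 with HBMECs.

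Other genes of the same pathways, taken from a list of 86 further ligands, receptors, STATs, adaptors and phosphatases, were also more often higher than lower. Of these, 44 were tested, 19 were higher (18.4% of all genes were) and 3 were lower (PIAS3, SH2B1 and TRAF6, beside 15.0% of all genes), and the median log2 fold change was 0.31 beside -0.03 for all genes. The list of 86 was chosen with earlier results of these data known, so its shares are a description only. IRS1, an adaptor of insulin and IL-4 receptors, showed a log2 fold change of 1.15 ± 0.08 and IRAK1, a kinase of the IL-1 receptor pathway, one of 1.30 ± 0.15. The count of 19 fell to 7 without co-cultured replicate 1 and to 8 without co-cultured replicate 2.

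Genes known to respond to STATs were counted from a list of 40, of which 22 were tested. Of these 22 genes, 12 were higher (18.4% of all genes were), 10 of them as upregulated DEGs (5.44% of all genes were), and the median log2 fold change was 0.87 beside -0.03 for all genes. None was lower (15.0% of all genes were), by edgeR or DESeq2, also at an unadjusted p under 0.05. This list was chosen with earlier results of these data known, so its shares are a description only. BCL3, a partner of NF-kappa-B proteins, rose from 9.57, 9.46 and 8.45 CPM to 35.7 and 33.8 CPM (log2 fold change 1.93 ± 0.11, adjusted p = 2.08e-05). OAS1, an interferon-induced antiviral enzyme, rose from 2.61, 2.43 and 1.89 CPM to 13.6 and 8.72 CPM (2.28 ± 0.24 on the log2 scale). VEGFA, the vascular growth factor, and HIF1A, the oxygen-regulated transcription factor, had log2 fold changes of 1.59 ± 0.11 and 1.08 ± 0.08, and both also respond to signals other than STATs. IRF1, ZFP36, JUNB and BCL6 had log2 fold changes of 1.20, 1.29, 1.25 and 1.15. Among the genes of the list that did not pass, PIM1, CCND1 and CEBPD had log2 fold changes of -0.12, -0.19 and 0.05. MYC was not tested and had 16, 6 and 4 counts in the controls and 2 in each library with HBMECs. Of the 40 genes, 13 had at most 3 counts in every library. SOCS3, a classical gene of the same response, did not pass as described above.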

How the data were processed

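Directional libraries were made from rRNA-depleted RNA of 5 NCI-H209 samples. Per the labels, the authors used STAR 2.6.1b on GRCh38. The deposited counts are raw reads per gene without regard to strand and for each strand, and the column of the expected strand was used. The comparison table that the authors deposited holds mean levels, fold changes and p-values, and only its gene names and IDs were used. Symbols matched there for 55 members and through GENCODE 29 for 5. Genes that passed filterByExpr (20360) were fitted with edgeR 4.0.16 (TMM, quasi-likelihood test, Benjamini-Hochberg adjustment) on R 4.3.3, 3 control against 2 co-cultured libraries, with no block. CPM are TMM-scaled. Errors are SE of the log2 fold change. DESeq2 1.42.0 and 14 other alternatives were run. The same test on opposite-strand counts was added after seeing the data. In simulated counts for 19845 genes, 76 of 100 genes changed by 1 on the log2 scale and 90 of 100 changed by 2 were recovered, with 8 false calls. The simulation drew every library with the same dispersion trend. In the data, control replicate 1 stood apart from control replicates 2 and 3 (chi-square per degree of freedom 17.9 and 18.1). Control replicates 2 and 3 differed less (6.34). The members, lists and alternatives were chosen with earlier results of these data known. Full values are given for members that passed, each JAK and STAT, members at or under 3 counts in 1 group only, and from the other lists at most 8 genes past both thresholds by smallest p, of which 1 is not reported here.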

Additional observations from a re-analysis of the deposited data

Results flagged for a closer look

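Reads on the strand opposite to SOCS2, which are not part of its counts on the expected strand, numbered 2, 5 and 4 in the controls and 31 and 16 with HBMECs. Their log2 fold change was 2.95 (edgeR's quasi-likelihood test, adjusted p = 0.00214 over 12653 genes with enough opposite-strand reads, of which 7.86% were higher and 6.39% lower), above the level in the control libraries. SOCS2-AS1 overlaps SOCS2 on that strand and showed a log2 fold change of 1.53. The part of SOCS2-AS1 in these reads was not tested.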

How the results depend on the processing

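Of 29 genes called and named, 23 kept their call under every alternative that gave a value, and none turned direction. Calls lost were those of IL18R1, SOCS1, JAK2, IL15, SOCS4 and IL10RA. The members called higher numbered 16 to 23 in the fits that kept at least 2 libraries in each group. They were fewer without co-cultured replicate 2 and more against control replicate 3 alone, fits that leave 1 library in a group. The shares of all genes called in these fits are not given here. The count of members called lower, 0, became 1 with upper-quartile normalization (IL17RD), with all genes of at least 1 count (IL7R), against control replicate 3 alone (LEPR), without regard to strand (JAK3) and with protein-coding genes only (IL17RD), and ran from 0 to 3 when 1 library was left out, with 3 without control replicate 1 (IL17RD, JAK3 and LEPR). The 1 downregulated DEG, IL7R, became 0 with DESeq2, with at least 10 counts in every library, against control replicate 3 alone and after subtracting opposite-strand reads, became 3 without regard to strand, and ran from 0 to 1 with 1 library left out. STAT response genes called lower numbered 1 with all genes of at least 1 count, 1 against control replicate 3 alone and 2 without regard to strand. Other pathway genes called higher ran from 7 to 22 and those called lower from 0 to 5 with 1 library left out, and 5 were lower against control replicate 3 alone. The cause of these changes was not tested.

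Deviations of same-numbered libraries from their group means had correlations of -0.11 and -0.07. The 2 co-cultured libraries deviate from their mean as mirror images, so these values cannot decide whether the numbers pair the libraries. With a replicate block, 16 members were higher, 1 was lower (IL7R, adjusted p = 0.00204), and other pathway genes called higher fell to 11. With 2 co-cultured libraries, leaving 1 out assumes that the lone library varies like the controls. The fit against control replicate 3 alone likewise assumes that this library varies like the co-cultured ones. STAT4, CISH and IL4R had few counts, and the part of depth in their values was not tested.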
